A study of Morus alba with 35 samples.

Results

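Control cells of white mulberry (Morus alba), collected 12 h into an elicitation experiment, were compared with those collected 6 h into it, with no elicited library in the comparison. The 4 control libraries of these times were taken from 34 short-read libraries in the series, of which 12 are controls. Of 31401 annotated genes, 27266 had a count in at least 1 of the 34 libraries, and 20107 had counts high enough to be tested. That filter used all 34 libraries, so some tested genes are expressed mainly in other groups. With the 4 libraries alone 18292 genes passed it. The other 11294 annotated genes were not tested.

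Both groups were cell suspensions derived from stem, grown from callus, filtered from a culture 14 days old, washed with water and placed in fresh medium at 25 °C in the dark on a shaker at 110 rpm. A flask contained cells (8 g) in medium (32 g), and the controls carried 2.1 µL of ethanol per mL, the solvent of the hormone given to elicited cells. The 12 h controls and the 6 h controls had 2 libraries each, all transferred and all exposed to ethanol, so what these share cannot be seen in the comparison. Elicited cells, set against them further on, received 50 mM methylated beta-cyclodextrin and 100 µM methyl jasmonate and had 4 libraries at 12 h and 3 at 6 h. Each replicate is a separate flask, but the labels do not say whether flasks came from separate parent suspensions, and the protocol's quadruplicate is met here by 2 control libraries a time. P-values therefore measure the spread between flasks.

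Plant cells moved from an old culture into fresh medium pass through a lag before they grow and divide again. In that lag they take up nutrients, rebuild ribosomes and metabolism, and respond to the handling itself, so that an untreated culture is not at rest. In elicitation studies the untreated flask at the same hour serves to separate this drift from the response to the elicitor. The identifiers of the count table are not paired with gene names or products, so genes are described by position, structure and level, and the stem label was not checked against markers.

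The 4 libraries held 17749524 and 17191217 counts at 12 h, against 18661780 and 17701434 counts at 6 h. Levels are given as CPM, counts relative to the scaled total of their library, and 3 counts correspond to 0.153 and 0.155 CPM in the 12 h libraries, against 0.157 and 0.183 CPM in the 6 h libraries. The 12 h libraries differed from each other by a median of 0.123 on the log2 scale per gene, and the 6 h libraries by 0.236. Between the times this median was 0.509 to 0.587 in the 4 pairs of libraries. The chi-square per degree of freedom was 5.91 between the 12 h libraries and 36.0 between the 6 h libraries, so neither pair agreed within sampling noise. These floors cover counting error only.

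Much of the expressed genome changed between 6 and 12 h without any elicitor. At an adjusted p below 0.05 (edgeR quasi-likelihood test, Benjamini-Hochberg over all tested genes), 4753 genes rose (23.6% of those tested) and 4331 fell (21.5%), 9084 in all (45.2%). At an unadjusted p below 0.05 the total was 10375. The 12 h and 6 h levels did not overlap for 4752 of the genes that rose and 4325 of those that fell, and for 15392 (76.6%) of all tested genes. With library size as the only scaling, 67.6% of the calls were increases, against 52.3% with the scaling used here, and the median change over all genes was 0.23 instead of 0.04 on the log2 scale. Directions are the sign of the log2 fold change under the scaling used here, and so depend on that scaling. In bulk RNA a change in the make-up of the cells and a change of RNA per cell cannot be told apart. The 2019 tested genes that share exon bases with another gene, whose reads could be counted for either, had 24.1% risen and 18.5% fallen.

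The decreases went deeper than the increases. The median log2 fold change was 0.89 among genes that rose (quartiles 0.61 and 1.27, median SE 0.18) and -0.94 among genes that fell (quartiles -1.59 and -0.61, median SE 0.20). Changes of at least 2-fold were near equal in number, 1961 up (9.75% of tested genes) and 2026 down (10.1%), but 2869 up and 1500 down with library size as the only scaling. At 4-fold or more there were 327 up and 740 down, at 8-fold or more 79 and 297, and at 16-fold or more 28 and 126. With library size alone there were 443 up and 602 down at 4-fold or more, and 30 and 107 at 16-fold or more. The difference was not limited to weakly expressed genes: among the 13895 genes with a mean of at least 2 log2 CPM, 90 rose and 376 fell by 4-fold or more, and 2 rose and 51 fell by 16-fold or more. Few genes went on or off entirely. Among tested genes, 81 had no count in either 6 h library, of which 13 were called higher at 12 h, and 115 had no count in either 12 h library, of which 37 were called lower. The highest mean level at 6 h among those 37 genes was 3.47 CPM, and the highest mean level at 12 h among the 13 genes was 0.845 CPM.

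**Figure D1:**
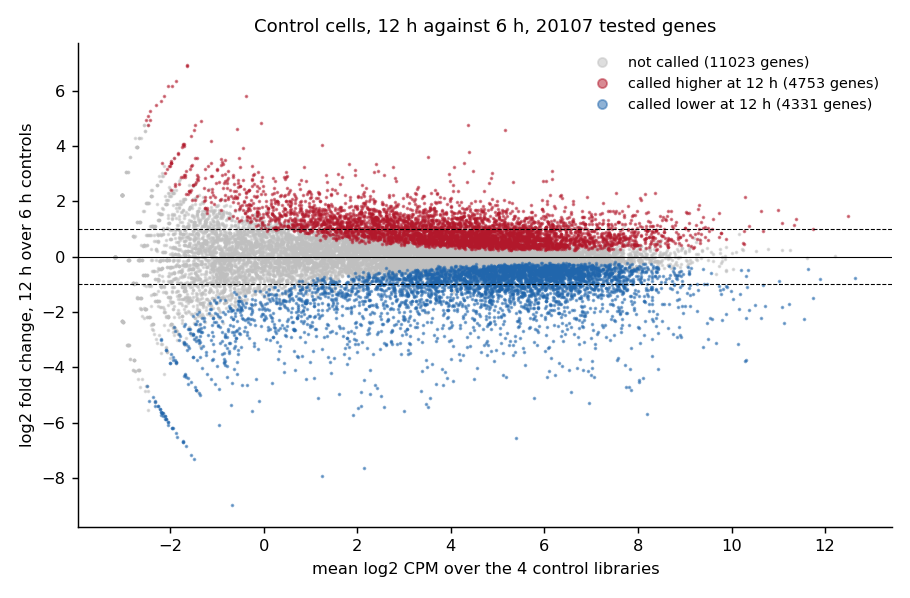
Log2 fold change of 12 h over 6 h controls against the mean log2 CPM over the 4 libraries, with 1 point per tested gene; dashed lines mark 2-fold. Points called lower reach further from 0 than points called higher, with 740 genes down and 327 up by at least 4-fold.

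Among the 11023 genes not called, intervals were narrow for the well expressed and wide for the rest. The 95% interval of the log2 fold change lay within 2-fold in either direction for 6070 of them (55.1%) and within 1.5-fold for 3182 (28.9%). For the 2526 uncalled genes with a mean of at least 5 log2 CPM the interval lay within 2-fold in 93.8%. For the 4667 with a mean under 2 log2 CPM it did so in 12.2%, so that for most of these a change of 2-fold can neither be called nor set aside.

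The changed genes carried much of the message pool. Genes that fell took 25.0% and 25.0% of the counts of tested genes in the 12 h libraries, against 46.6% and 51.6% in the 6 h libraries. Genes that rose took 36.6% and 36.8% at 12 h, against 18.4% and 16.3% at 6 h. Genes not called took 38.4% and 38.2% at 12 h, against 34.9% and 32.1% at 6 h. These genes were chosen on the same libraries, so the shares describe the size of the turnover and test nothing. Among the genes that fell, 131 made up 50% of the lost share, and among the genes that rose 222 made up 50% of the gain. No single transcript dominated: the largest gain was that of a gene with 1.07% of counts in both 12 h libraries, against 0.300% and 0.366% in the 6 h libraries. The largest loss was that of a gene with 0.158% and 0.151% at 12 h, against 0.620% and 0.651% at 6 h.

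The 2 genes that rose by at least 16-fold among those with a mean of at least 2 log2 CPM were neighbours on chromosome 9. Mal_HE_154X_1_chr009g006750 (positions 7877499 to 7879195, plus strand, 2 exons, 1474 exon bases) stood at 110 and 106 CPM in the 12 h controls, against 2.89 and 5.12 CPM in the 6 h controls. The 0.5 h controls had 1.16 and 4.92 CPM, the 24 h controls 8.81 and 11.5 CPM, the 48 h controls 2.23 and 4.33 CPM, and the 72 h controls 0.613 and 1.43 CPM. Its levels at 12 h stood above those of every other control library. The log2 fold change from 6 to 12 h was 4.76 (SE 0.59, adjusted p = 2.97e-07 by edgeR's quasi-likelihood test).

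Mal_HE_154X_1_chr009g006740 (positions 7867931 to 7869755, plus strand, 2 exons, 1598 exon bases) lies 7743 bases before it and had 186 and 174 CPM at 12 h, against 4.78 and 10.2 CPM at 6 h. Its log2 fold change was 4.59 (SE 0.57, adjusted p = 3.12e-07 by edgeR's quasi-likelihood test), and 5.23 without replicate 2 of the 6 h controls. It too came down afterwards, with 23.5 and 27.8 CPM in the 24 h controls and 1.23 and 1.83 CPM in the 72 h controls. Both genes therefore formed a peak at 12 h in the control cells. The counting of multi-mapping reads is not given in the sources used here, so like copies in a tandem could share reads.

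Mal_HE_154X_1_chr001g032900 (chromosome 1, positions 47739462 to 47741127, plus strand, 4 exons, 928 exon bases) nearly vanished. It had 0.102 and 0.466 CPM at 12 h, from 2 and 9 counts, against 72.1 and 42.8 CPM at 6 h, from 1373 and 702 counts. The log2 fold change was -7.63 (SE 1.27, adjusted p = 2.05e-05 by edgeR's quasi-likelihood test), and -6.92 without replicate 1 and -9.04 without replicate 2 of the 12 h controls. In the 0.5 h controls it stood at 14.1 and 10.4 CPM, and in the 24, 48 and 72 h controls it ran from 0.0509 to 0.341 CPM. It was thus highest at 6 h among the control times and low at every later one.

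Mal_HE_154X_1_chr007g013190 (chromosome 7, positions 9792685 to 9795100, minus strand, 3 exons, 2146 exon bases) followed the same course. It had 4.58 and 3.98 CPM at 12 h, against 421 and 390 CPM at 6 h, a log2 fold change of -6.56 (SE 0.89, adjusted p = 1.29e-06 by edgeR's quasi-likelihood test). The 0.5 h controls had 96.7 and 174 CPM, and the controls from 24 to 72 h had 0.815 to 4.21 CPM. None of the 4 named genes shares exon bases with another gene.

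**Figure D2:**
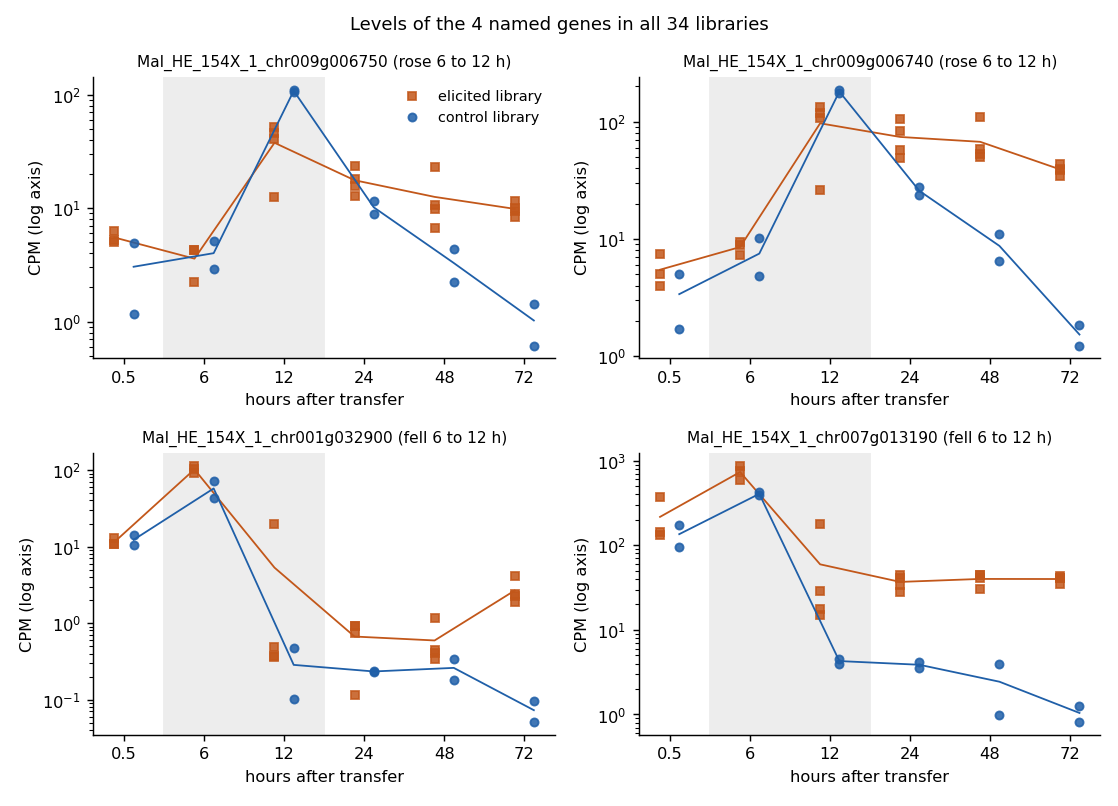
CPM on a log axis at each time for the 4 named genes in all 34 libraries, elicited libraries as squares and control libraries as circles, with lines through the group means and the 6 to 12 h step shaded. In the controls the upper pair peak at 12 h and the lower pair drop after 6 h, Mal_HE_154X_1_chr007g013190 to 4.58 and 3.98 CPM.

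Most of the step was kept at later times. Controls of 24 h and 0.5 h share no library with the step, and between them 5565 of all tested genes were called higher (27.7%) and 6196 lower (30.8%). Of the genes that rose from 6 to 12 h, 3172 (66.7%) were higher at 24 h than at 0.5 h and 291 (6.12%) were lower. Of the genes that fell, 3064 (70.7%) were lower at 24 h and 219 (5.06%) were higher. Seen from the other list, these were 57.0% of the genes higher and 49.5% of those lower at 24 h. With library size as the only scaling 4746 genes, instead of 3172, were higher in both comparisons and 1926, instead of 3064, were lower in both. Under that scaling 6240 genes in all rose from 6 to 12 h and 2989 fell. The same held at 48 h, where 63.3% of the risen genes were higher and 71.8% of the fallen genes were lower than at 0.5 h, beside 30.1% and 33.4% of all tested genes. At 72 h the shares were 62.8% and 67.6%, beside 31.5% and 33.3%.

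The steps before and after share libraries with the 6 to 12 h step and are given side by side only. From 0.5 to 6 h 7293 genes were called (36.3%), from 6 to 12 h 9084, and from 12 to 24 h 3411 (17.0%). The median log2 change of the genes that rose was -0.23, 0.89 and 0.08 over these 3 steps, and that of the genes that fell was 0.16, -0.94 and -0.17. In each library the median level of the genes that fell, relative to the mean of the 0.5 h controls, was 0.11 and 0.22 in the 6 h libraries, with -0.73 and -0.76 by 12 h. It was -0.94 and -0.93 at 24 h, then -1.10 and -0.98 in the 48 h libraries, with -0.93 and -0.92 at 72 h. For the genes that rose it was -0.19 and -0.27 in the 6 h libraries, with 0.64 and 0.64 by 12 h. It was 0.72 and 0.71 at 24 h, then 0.71 and 0.73 in the 48 h libraries, with 0.68 and 0.70 at 72 h. Libraries of 1 time lay closer to each other than the 6 h libraries to the 12 h libraries. The values at 6 and 12 h follow from how the genes were chosen, and those from 24 h on do not.

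**Figure D3:**
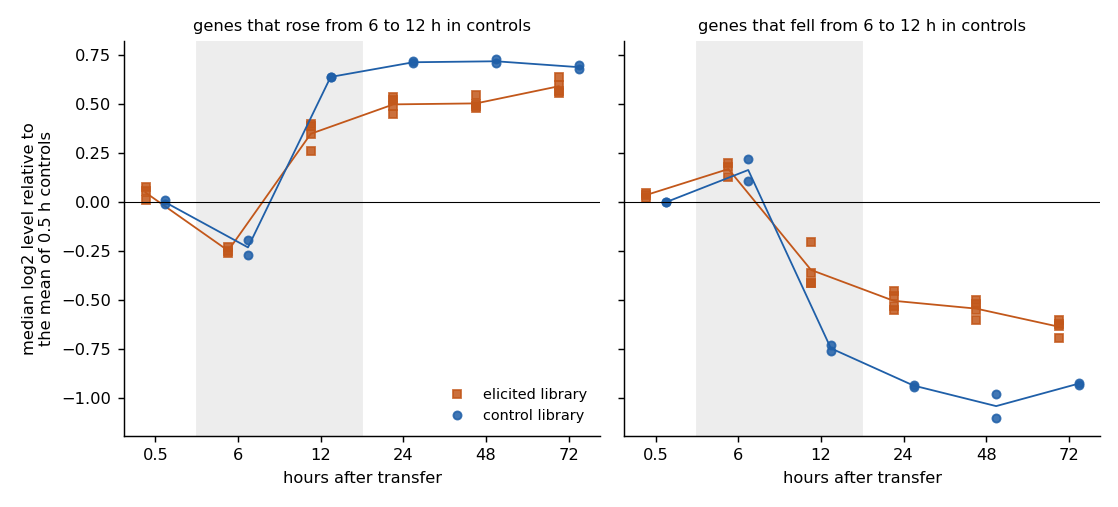
Median log2 level of the genes that rose (left) and fell (right) from 6 to 12 h in controls, per library, relative to the mean of the 0.5 h controls; squares are elicited and circles control libraries, and lines join group means. Control medians of the fallen genes are -0.73 and -0.76 at 12 h and stay near -0.93 at 72 h, and elicited medians at 12 h are -0.20 to -0.41.

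Elicited cells made much of the same step. Between their own 12 h and 6 h libraries 4700 genes rose (23.4%) and 4072 fell (20.3%), with 1191 up (5.92%) and 1421 down (7.07%) by at least 2-fold. Of the genes that rose in controls, 3455 (72.7%, and 73.5% of the genes that rose in elicited cells) also rose in elicited cells and 25 fell. Of the genes that fell in controls, 2761 (63.7%, and 67.8% of the genes that fell in elicited cells) also fell and 33 rose. The median changes in elicited cells were 0.60 for the genes that rose in controls and -0.50 for those that fell. Across the 20107 genes the steps had a Pearson r of 0.673 and a Spearman rho of 0.725, and across the 6326 genes with a mean of at least 5 log2 CPM an r of 0.825. These are descriptions over genes, which are not independent replicates, and all libraries entered 1 fit.

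The difference of the steps was tested gene by gene. The elicited minus control step was called higher for 672 genes (3.34%) and lower for 362 (1.80%), 1034 in all (5.14%), and 3704 genes had an unadjusted p below 0.05 (edgeR quasi-likelihood test, Benjamini-Hochberg over all tested genes). In the 672 genes the median change was -0.22 in elicited cells and -1.31 in controls, with 279 falling and 83 rising in elicited cells, against 622 falling and 2 rising in controls. In the 362 genes the medians were -0.03 in elicited cells and 1.08 in controls, with 100 rising and 101 falling in elicited cells, against 286 rising and 3 falling in controls. Most of these genes were called in 1 direction in the controls, while in elicited cells they went both ways or were not called. The genes were chosen on the difference of these same steps, so their medians and counts are descriptions and test nothing. In elicited and control cells the calls were opposite for 33 of the 672 genes and 25 of the 362. The total of 1034 genes whose steps differed rests on single control libraries. It was 205 without replicate 2 and 1304 without replicate 1 of the 6 h controls, and 479 without replicate 1 and 259 without replicate 2 of the 12 h controls. Without replicate 1 of the elicited 6 h libraries the lower calls were 208. With library size as the only scaling there were 387 higher and 511 lower calls, so the split between the directions turns with the scaling.

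**Figure D4:**
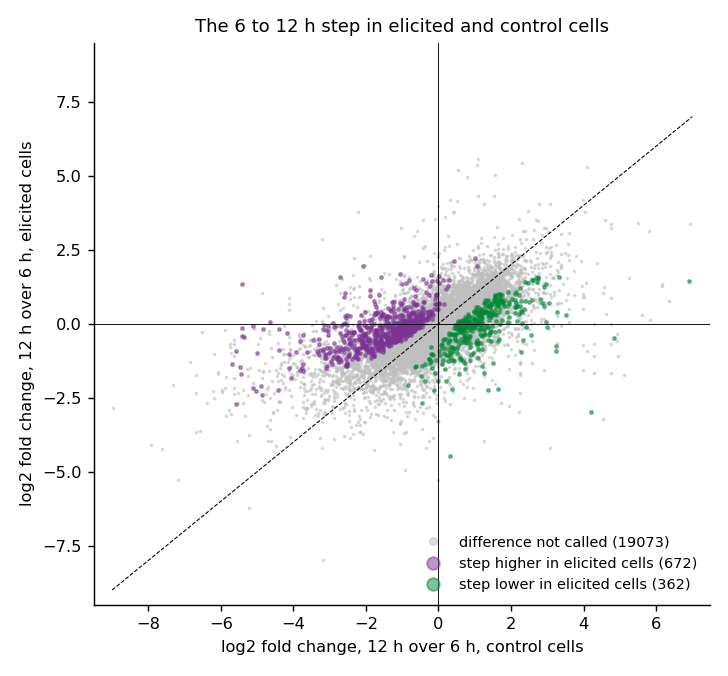
Log2 fold change of 12 h over 6 h in elicited cells (vertical) against that in control cells (horizontal), 1 point per tested gene, with the line of equal change dashed. Genes whose steps differed, 672 higher and 362 lower in elicited cells, lie on either side of that line, which follows from how they were chosen. For the 672 the median change was -0.22 in elicited cells and -1.31 in controls. For the 362 it was -0.03 in elicited cells and 1.08 in controls.

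Replicate 4 of the elicited 12 h libraries stood apart from the other 3, with a log2 CPM correlation of 0.969 to 0.975 with them, against 0.985 to 0.987 among them. Its values lay towards those of 6 h: the genes that fell in controls took 39.2% of its counts, against 30.7%, 30.9% and 32.1% in the other elicited 12 h libraries and 47.1% to 51.4% in the elicited 6 h libraries. Without it, 1075 genes differed between the steps, and 4777 rose and 4362 fell in elicited cells.

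The named genes took the same direction in elicited cells. Mal_HE_154X_1_chr009g006750 had 45.8, 51.8, 40.3 and 12.6 CPM in the elicited 12 h libraries, against 2.21, 4.31 and 4.23 CPM in the elicited 6 h libraries, a log2 fold change of 3.38. Mal_HE_154X_1_chr009g006740 had 119, 134, 107 and 26.3 CPM, against 8.85, 7.33 and 9.38 CPM. After the 12 h peak it stayed higher in elicited cells, with 34.5 to 43.4 CPM at 72 h, against 1.23 and 1.83 CPM in the 72 h controls. Mal_HE_154X_1_chr001g032900 had 0.357, 0.484, 0.366 and 20.0 CPM at 12 h, the last value in replicate 4, against 90.1, 104 and 112 CPM at 6 h. Mal_HE_154X_1_chr007g013190 had 28.9, 14.8, 17.5 and 177 CPM at 12 h, the last again in replicate 4, against 585, 760 and 859 CPM at 6 h. The test of the difference between elicited and control steps gave an adjusted p of 0.293, 0.401, 0.228 and 0.0682 for these 4 genes in this order (edgeR quasi-likelihood). For Mal_HE_154X_1_chr007g013190 the difference of 2.94 on the log2 scale passed the threshold when replicate 1, 2 or 3 of the elicited 12 h libraries was left out (adjusted p = 0.0480, 0.0271 and 0.0310, edgeR quasi-likelihood) and in DESeq2 (adjusted p = 0.0346). Without replicate 4, the library that stood apart, it was 1.39 (adjusted p = 0.152, edgeR quasi-likelihood). Over all libraries left out in turn its adjusted p ran up to 0.282 in edgeR's quasi-likelihood test.

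The shares of genes that rose and fell varied with structure and level. The share that rose was 18.5% of 3174 tested genes with 1 exon, 19.5% with 2 exons, 21.5% with 3 to 5, 26.1% with 6 to 10 and 31.2% of 3381 genes with over 10 exons. The share that fell was 18.6%, 21.6%, 22.2%, 22.8% and 21.2% in the same groups. Large changes did not follow the share of all increases: 12.2%, 10.6%, 9.22%, 8.85% and 9.20% rose by at least 2-fold, and 12.5%, 13.2%, 11.5%, 8.33% and 5.97% fell by at least 2-fold. Level and length moved with exon number: the median was 1.98 log2 CPM, not divided by length, and 1298 exon bases for genes with 1 exon, and 5.22 log2 CPM and 2414 exon bases for genes with over 10. Tested genes were also split by level into 4 bands of equal size. Within the highest band the share that rose was 17.2% for 1 exon and 25.9% for over 10 exons, and the share that fell 40.2% and 30.7%. Within the second lowest band the share that rose was 26.1% and 37.6%, and the share that fell 18.1% and 10.3%. In these bands genes with over 10 exons thus rose more often and fell less often than genes with 1 exon. These shares are descriptions over genes.

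By level alone, from the lowest to the highest band, 11.4%, 28.9%, 30.3% and 23.9% of genes rose and 10.5%, 15.3%, 23.1% and 37.3% fell. The median log2 change was 0.04, 0.20, 0.06 and -0.13 in these bands, to be read against 0.04 over all tested genes. The number of counts behind a gene grows with its level, and the part of this in the shares was not tested. The share of tested genes that rose was 15.6% on chromosome 1 and 22.6% (chromosome 5) to 27.3% (chromosome 8) on the others. The share that fell was 17.5% (chromosome 8) to 25.0% (chromosome 12). Of the 168 tested genes on scaffolds, 11.3% rose and 4.17% fell. Chromosome 1 also had the lowest median level of the 14 chromosomes, 2.12 log2 CPM, again not divided by length.

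Neighbouring genes moved together to a small degree. Of single tested genes that share no exon bases, 23.6% rose and 21.9% fell. Over 12696 pairs of adjacent tested genes that share no exon bases, both rose in 6.91%, both fell in 6.72% and they went opposite ways in 9.22%. The Pearson r of their step over all pairs was 0.149, a description over genes. In 227 divergent pairs no more than 1000 bases apart, which start near each other on opposite strands, r was 0.447, with 11.5% both risen, 3.96% both fallen and 4.85% opposite. In 639 pairs on the same strand at that distance r was 0.310. In 736 convergent pairs over 5000 bases apart it was 0.00790. In elicited cells the same 3 groups of pairs had r of 0.258, 0.248 and 0.0506. Whether reads were counted by strand is not given in the sources used here, and the part of reads from one gene counted for a close neighbour was not tested.

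A small part of the step lay in blocks of adjacent genes. Of the genes that share no exon bases with another gene, 3691 changed by at least 2-fold. Runs of at least 3 tested neighbours that all rose or all fell by at least 2-fold numbered 19 rising and 34 falling and held 186 genes. Of these runs, 7 had at least 5 genes, 4 rising and 3 falling. Some reached their length with a gene near the floor of 3 counts in a control library. In the 6 h controls Mal_HE_154X_1_chr006g021990 had 0.0525 and 0 CPM, and Mal_HE_154X_1_chr011g012960 had 0.105 and 0.549 CPM. In the 12 h controls Mal_HE_154X_1_chr013g004570 had 0.153 and 0.517 CPM. Without the chromosome 6 or chromosome 11 gene, its run would fall below 5 genes. The runs were found from the step itself, so their values at 6 and 12 h in controls are descriptions. How many such runs a random order of genes would give was not tested.

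The longest run was 7 genes with 1 exon each, of 438 to 763 exon bases, on chromosome 6 from 13776229 to 13798812. All fell, with log2 fold changes of -4.34 to -1.03. Their summed level was 313 and 254 CPM in the 12 h controls, against 1431 and 3775 CPM in the 6 h controls. The 0.5 h controls stood higher still, at 6979 and 7573 CPM, and all 7 genes were lower at 24 h than at 0.5 h in the controls that share no library with the step. In elicited cells the sum was 590, 682, 921 and 3079 CPM at 12 h, against 4101, 1555 and 1980 CPM at 6 h, so these groups overlapped, and 2 of the 7 genes were called lower.

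Both other falling runs lay on chromosome 13. The 6 genes from 4545031 to 4574212 summed to 187 and 175 CPM at 12 h, against 711 and 838 CPM at 6 h, and in elicited cells to 480 to 565 CPM at 12 h, against 1160 to 1291 CPM at 6 h. The 5 genes from 3878678 to 3911584 summed to 385 and 370 CPM at 12 h, against 1635 and 2073 CPM at 6 h. From 48 h on these 5 genes stood at 1537 to 2358 CPM in elicited libraries, against 159 to 192 CPM in control libraries, and the groups did not overlap. In elicited cells 5 of the 6 and 5 of the 5 genes also fell. In order of position, the run of 5 genes had log2 fold changes of -2.91, -1.19, -3.37, -1.36 and -1.40 in the controls. The last 5 of the 6 genes had -2.80, -1.03, -3.27, -1.26 and -2.25, with strands in the same order. The counting of multi-mapping reads is not given, so like copies could share reads and these runs need not be independent. Whether they are copies was not tested.

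The summed levels of a pair of rising runs came down again by 24 h in the controls. The 5 genes with 2 exons each on chromosome 2 from 2679021 to 2710820, all on the plus strand, summed to 13626 and 14216 CPM at 12 h, against 5206 and 6049 CPM at 6 h. Their sum was 5733 and 6316 CPM in the 24 h controls and 2433 and 3058 CPM in the 72 h controls. The 6 genes on chromosome 8 from 3602615 to 3653997, all on the minus strand, summed to 12375 and 11745 CPM at 12 h, against 3618 and 5310 CPM at 6 h. Most of this sum was 1 gene, Mal_HE_154X_1_chr008g004370, with 9712 and 9543 CPM at 12 h. At 24 h the elicited libraries had 13935 to 21458 CPM and the controls 2493 and 2484 CPM. All genes of these runs rose in elicited cells too. The chromosome 8 sum was 20997, 24747, 23298 and 8850 CPM in elicited cells at 12 h, the last in replicate 4, against 5686, 7291 and 8962 CPM at 6 h, so that replicate 4 alone overlapped.

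The other rising runs differed in what came after. The 5 genes on chromosome 6 from 20804696 to 20849000 summed to 100 and 110 CPM at 12 h, against 42.2 and 29.9 CPM at 6 h. In the controls the sum was 60.8 and 62.0 CPM at 0.5 h and 94.3 and 96.4 CPM at 24 h. It was 45.4 and 31.6 CPM at 48 h and 14.8 and 15.6 CPM at 72 h. Of these genes, 4 were called higher and 1 lower in the 24 h than in the 0.5 h controls. In elicited cells this run summed to 200, 259, 222 and 91.7 CPM at 12 h, against 87.6, 76.6 and 95.8 CPM at 6 h, with replicate 4 again the overlapping library. The 5 genes on chromosome 11 from 10775872 to 10817222 summed to 1199 and 1263 CPM at 12 h, against 405 and 343 CPM at 6 h. Most of this sum was 1 gene, Mal_HE_154X_1_chr011g012930, with 1107 and 1158 CPM at 12 h, against 376 and 307 CPM at 6 h. The sum stayed up in the controls, with 1183 and 1211 CPM at 24 h and 952 and 986 CPM at 72 h. Of the 5 genes, 2 were called higher in the 24 h than in the 0.5 h controls. In elicited cells the 5 genes summed to 566 to 694 CPM at 12 h, against 343 to 383 CPM at 6 h, and 2 of them were called higher. The step was lower in elicited cells for 2 of the 5 genes by the test of the difference.

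**Figure D5:**
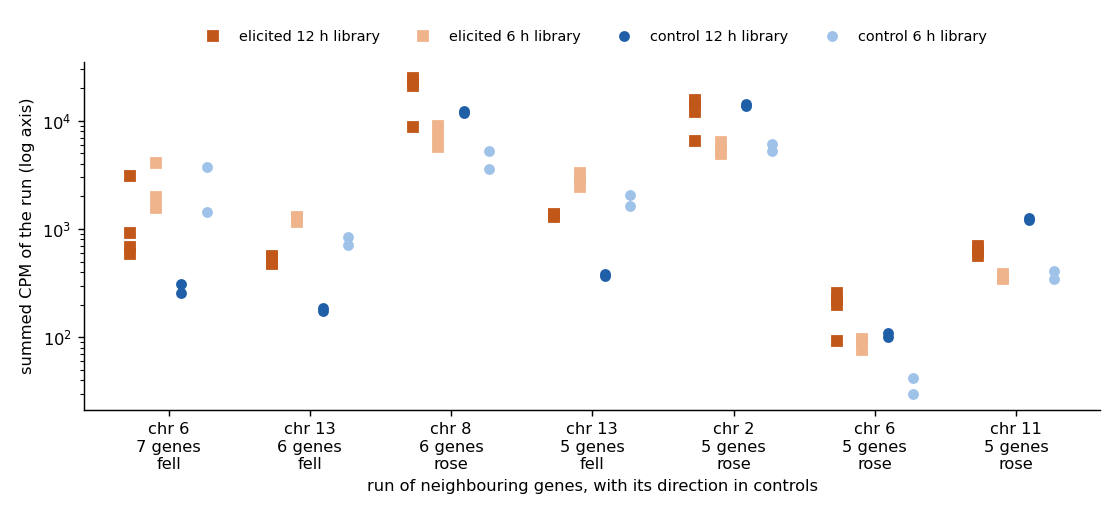
Summed CPM, on a log axis, of the 7 runs of at least 5 adjacent genes, per library, with elicited cells (squares, 12 h left of 6 h) and control cells (circles, 12 h left of 6 h). In the controls each run is apart between the times; in elicited cells both chromosome 6 runs and the chromosome 8 run overlap, the run of 7 genes with 590 to 3079 CPM at 12 h and 1555 to 4101 CPM at 6 h.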

How the data were processed

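The deposited values were raw read counts per gene in a single table with exon coordinates, with no normalization by the authors. The submitters' processing notes name fastp, STAR and featureCounts, without versions. Not given in the sources used here are the genome build, annotation, counting by strand and treatment of multi-mapping reads. Per the labels, RNA of integrity number 7 or more entered a stranded mRNA kit. Columns were matched to samples by the label in each description. A pooled long-read sample is not analysed here.

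Genes were kept by filterByExpr (minimum count 10), scaled by TMM and fitted in edgeR 4.0.16 (R 4.3.3) with a mean for each of the 12 treatment-by-time groups over 34 libraries, which share an estimate of the spread. Contrasts were tested by quasi-likelihood F tests with Benjamini-Hochberg adjustment, called below 0.05. SE was taken as the size of the log2 fold change divided by the root of F, and the 95% intervals use the test's degrees of freedom. Log2 CPM used a prior count of 2. Totals lay between 17191217 and 18897243 counts per library. The test was checked on simulated counts.

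Named genes are the 2 largest called increases and 2 largest called decreases in the control step among genes with a mean of at least 2 log2 CPM and no overlap between the times. The comparison, genes and lists were chosen with earlier results of these data known. Lists of gene products and cell markers were not run, as the identifiers are not paired with names here, and no sequence was used. Replicate numbers gave no sign of pairing: the deviations of same-numbered 6 h and 12 h controls correlated at -0.0559. Replicate 2 is column 6c3 at 6 h and column 12c2 at 12 h, so like numbers need not mark like flasks. This check therefore cannot show whether flasks were paired.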

Additional observations from a re-analysis of the deposited data

Results flagged for a closer look

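In replicate 4 of the elicited 12 h libraries 4 values lay far from those of the other 3 libraries, measured as the gap to the nearest library over the group's range. Mal_HE_154X_1_chr001g032900 had 20.0 CPM there (ratio 0.994), Mal_HE_154X_1_chr007g013190 177 CPM (ratio 0.913), the genes that fell in controls 39.2% of counts (ratio 0.835), and the 7 genes of the chromosome 6 run 3079 CPM in sum (ratio 0.867), against a critical ratio of 0.829. In all, 15 measures of the same 4 elicited 12 h libraries were examined and 4 were past it. For a single measure, chance passes this ratio about 1 time in 20. The 15 measures overlap, so their count cannot be set against that rate. No other group of libraries was examined in this way. All 4 values lay on the side of the 6 h libraries.

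The 6 to 12 h step differed between elicited and control cells by the test of the difference, with 672 genes higher and 362 lower in elicited cells. Without replicate 2 of the 6 h controls these were 158 and 47.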

How the results depend on the processing

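The control step kept its counts within 1.5 times under every alternative run: 4346 higher and 4692 lower with DESeq2's size factors in edgeR, 6240 and 2989 with library size alone, 4625 and 4010 without the filter on low counts, 4823 and 4451 with the 12 control libraries only, 4713 and 4728 with the 4 libraries of the step only, and 4427 and 4786 with DESeq2 1.42.0. With the replicate block, without evidence that the numbers pair the samples, 9155 genes were called, of which 8971 were calls of the fit without it, and 1037 differed between elicited and control steps. The difference of Mal_HE_154X_1_chr007g013190 was 2.39 with the block (adjusted p = 0.141, edgeR quasi-likelihood). Leaving out each library in turn gave 6560 to 9271 calls for the control step, 3179 to 4085 of at least 2-fold, and 205 to 1304 for the difference between the steps, of which 158 to 833 were higher and 47 to 471 lower. Where that leaves an arm with 1 library, it is assumed to vary like the other groups. With library size alone 387 genes had a higher step in elicited cells, and 1926 genes fell both in the control step and between 24 h and 0.5 h controls, instead of 3064. For Mal_HE_154X_1_chr001g032900 the difference between the steps was 3.40, and with a library left out it ran from -0.33 to 4.81, the first value without replicate 4 of the elicited 12 h libraries (adjusted p = 0.898, edgeR quasi-likelihood) and the last without replicate 2 of the 12 h controls; the cause was not tested. The alternatives that leave out a control library of 0.5 or 24 h, or genes sharing exon bases, were added after seeing the data. Precision is lowest under 2 log2 CPM, where most intervals of uncalled genes reach past 2-fold; depth and the spread between 2 libraries a group both enter them.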
